A study of Mus musculus with 12 samples.

Results

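The matrix metalloproteinase (Mmp), Adamts and Timp genes of 3T3-L1 cells are described here. They are every row of the expression table named Mmp, Adamts or Timp followed by its family number, which gave 46 of 55487 genes. These families were chosen with earlier results of these data known. Of these, 23 were Mmp genes, 19 were Adamts genes and 4 were Timp genes. 3T3-L1 is a line of mouse fibroblasts with the capacity to become adipocytes when induced with hormones, and its fragmented total RNA was sequenced. Lentiviral hairpins had been delivered under puromycin selection, either scrambled as a control (shScram) or made to knock down Fto (shFTO), the gene of an RNA demethylase. Both lines were taken past confluence and collected as preadipocytes (Pre). Cells of both lines given the MDI induction cocktail were collected at the mitotic clonal expansion stage (MCE) and after differentiation (Diff). Each of the 6 groups had 2 libraries. Which of the study's Fto hairpins the sequenced cells carried, and whether all shFTO libraries carried the same one, is not given in the sources used here.

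MMPs are secreted or membrane-bound zinc proteases that together cut most proteins of the extracellular matrix. ADAMTS proteases are secreted relatives that cut proteoglycans, trim procollagens or act on matrix glycoproteins. TIMPs are the small secreted proteins that block the active sites of MMPs and, for TIMP3, of some ADAMTS proteases. Preadipocytes lie in a fibrillar matrix of collagen and fibronectin, and as they become adipocytes they take this matrix down and build a basement membrane around each cell, so these proteases and inhibitors are well known in adipose tissue. MMP14 at the cell surface is its main pericellular collagenase.

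The authors deposited TPM values, which are length-corrected shares of all transcripts, so levels can be compared between genes. Comparisons between libraries also depend on the scaling, as given below. Fto itself held 52.7 to 73.5 TPM in the shScram libraries and 5.51 to 7.47 TPM in the shFTO libraries. Across genes, the 2 libraries of a group correlated on the log2(TPM + 1) scale at 0.939 for shScram preadipocytes and at 0.990 to 0.993 elsewhere, so the shScram preadipocyte pair stood apart. Replicate 1 of shScram at the Diff stage carries a treatment entry that names the knockdown. Its title was followed, since it held 73.5 TPM of Fto, beside 70.8 TPM in replicate 2, far above every shFTO library. The labels do not say that replicates came from separate cultures, and the p-values then measure only the spread between these libraries, which may be technical. Adipoq and Fabp4, which mark adipocytes, reached 72.4 to 77.2 and 836 to 876 TPM in shScram cells at the Diff stage, and 3.66 to 6.05 and 118 to 138 TPM in shFTO cells. The summed level of 11 adipocyte markers was 1520 to 1530 TPM in shScram Diff libraries and 418 to 457 TPM in shFTO Diff libraries. Fabp4 was the largest part of the former sum and Lpl of the latter. Lpl differed little there, with 303 and 333 TPM for the control against 282 and 269 TPM for the knockdown. Cebpa was higher in the knockdown, with 5.77 and 5.19 TPM against 5.01 and 3.77 TPM. Lep never exceeded 0.0309 TPM, and the remaining markers were lower in both shFTO Diff libraries. The part of this sum in the differences given for that stage was not tested. In such bulk samples, fewer cells of a type and less RNA per cell cannot be told apart.

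A member was tested when it held at least 1 TPM in at least 2 of the 12 libraries. The tested genes were 9 Mmp genes, 11 Adamts genes and all 4 Timp genes, 24 in sum. The other 22 stayed at or under 1.08 TPM in every library. Timp4 met this limit in both libraries of 1 group only, the shScram Diff stage, and Mmp13 in 2 groups, so the rule that admitted these genes already favoured groups where they were high. Differences are given as log2 fold changes of TPM + 1 with their standard errors (SE, n = 2 libraries a group). They come from limma with Benjamini-Hochberg adjustment over all 15968 tested genes, and a call means an adjusted p under 0.05. The SE of a gene rests on the spread within all 6 groups. It is therefore the same in every comparison of 2 groups, and an uneven pair in 1 group widens it throughout. The scale understates the change of genes at low TPM. Each call of a member was repeated under 22 alternative settings, 12 of which left out 1 library each. Where a knockdown call was lost in any of them, the number that kept it is given. For changes between stages this number is given for some genes only. A library left out of a pair leaves the other one alone, and that one is then assumed to vary like the other groups.

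**Figure D1:**
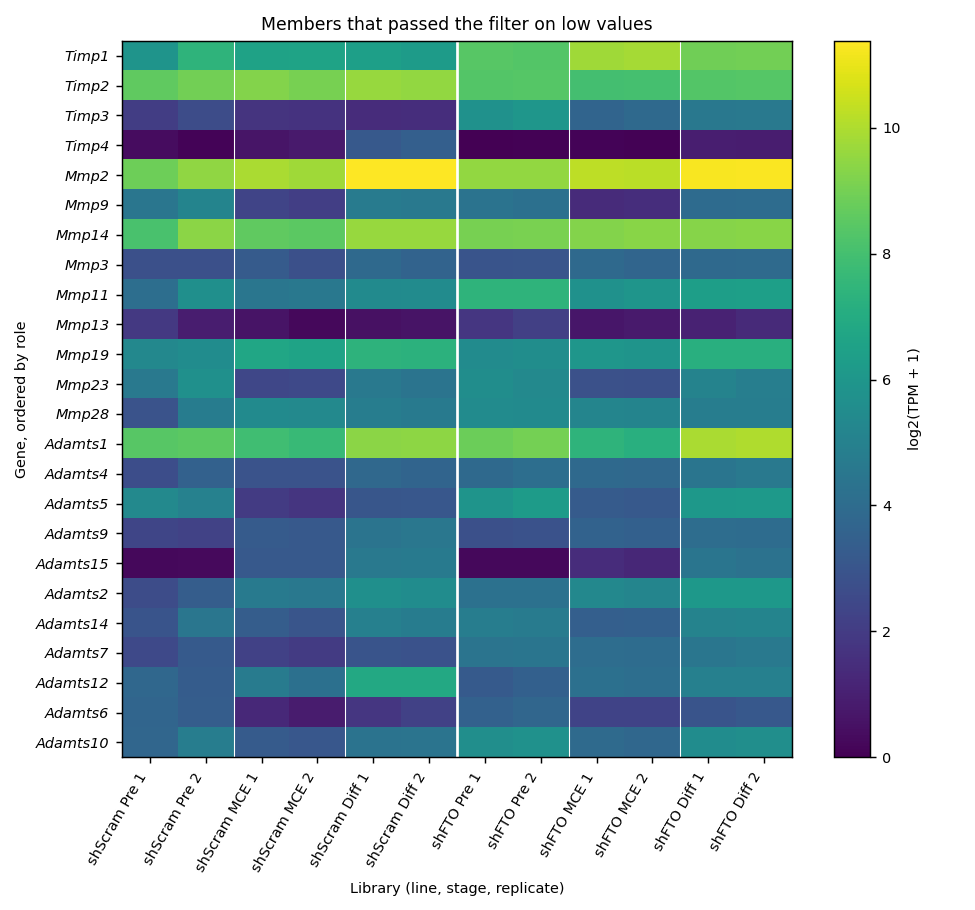
Heat map of log2(TPM + 1) for the 24 genes that were tested (rows, ordered by role) in the 12 libraries (columns, by line, stage and replicate). Mmp2 was brightest in the Diff libraries of both lines, at 2453 to 2663 TPM, Timp3 was brighter in every shFTO library than in any shScram library, and the left-most shScram preadipocyte column differed from its replicate.

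The tissue inhibitors differed between the lines in opposite directions. Timp1 and Timp3 were higher in shFTO cells at all 3 stages, and Timp2 and Timp4 were lower at the MCE and Diff stages. Timp1 lies on chromosome X of GRCm38 from 20870166 to 20874735, inside Syn1 on the opposite strand, and Timp3 and Timp4 overlap Syn3 and Syn2, also on opposite strands. Bases just upstream of the transcription start are shown for Timp1, which was higher in the knockdown, and Timp4, which was lower (RefSeq, GRCm38.p6, 60 bases read 5′ to 3′ on the gene's strand). Capitals mark the GC box, GGGCGG on either strand. Timp1 lies on the plus strand at chrX:20870106-20870165 and Timp4 on the minus strand at chr6:115252206-115252265.
Timp1: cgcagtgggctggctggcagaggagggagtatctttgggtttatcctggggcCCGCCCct
Timp4: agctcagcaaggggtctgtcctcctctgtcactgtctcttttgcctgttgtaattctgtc
The Timp1 stretch held 1 GC box, 8 bases before the start, and the Timp4 stretch held none. A GC box was found in 35.7% of 32851 RefSeq promoter windows that run from 250 bases before to 50 bases after a start, and Timp2 and Timp3 also had one in their windows.

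Timp1 encodes a soluble inhibitor that binds MMP9 with preference. It held 57.6 and 166 TPM in shScram preadipocytes, 94.4 and 97.0 TPM at MCE and 83.8 and 75.0 TPM at Diff. The shFTO libraries held 340 and 323 TPM, 856 and 931 TPM, and 479 and 493 TPM at the same stages. Every shFTO library thus lay above every shScram library, and the means differed 2.97-fold, 9.33-fold and 6.12-fold. The log2 fold change was 1.75 ± 0.37 in preadipocytes, 3.21 ± 0.37 at the MCE stage and 2.60 ± 0.37 at the Diff stage (limma, adjusted p = 0.0121, 0.00059 and 0.00142). The preadipocyte call held in 19 of 22 alternatives. Only shFTO cells had a call from Pre to MCE, a rise of 1.43 ± 0.37 (limma, adjusted p = 0.0198), and the difference between the lines in that change was not called.

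Timp3 encodes the inhibitor that is bound to the matrix and also blocks ADAMTS4 and ADAMTS5. Its level was 3.18 and 5.18 TPM in shScram preadipocytes, 2.25 and 2.21 TPM at MCE and 1.73 and 1.77 TPM at Diff. The shFTO libraries held 53.4 and 62.7 TPM, 11.7 and 13.8 TPM, and 22.7 and 23.3 TPM. The lowest shFTO library was therefore above the highest shScram library, with means 13.9-fold, 5.72-fold and 13.2-fold apart. The log2 fold changes were 3.53 ± 0.19, 2.09 ± 0.19 and 3.13 ± 0.19 in stage order (limma, adjusted p = 2.1e-05, 0.000164 and 1.4e-05), and the first held in 21 of 22 alternatives. Timp3 fell from Pre to MCE in both lines, by 0.65 ± 0.19 in shScram and by 2.1 ± 0.19 in shFTO cells. The fall was greater in shFTO cells by 1.45 ± 0.27 (limma interaction contrast, adjusted p = 0.0215), a difference called in 14 of 22 alternatives.

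Timp2 encodes the inhibitor that, beside blocking MMPs, couples pro-MMP2 to MMP14 at the cell surface. It was the most abundant inhibitor in shScram cells, at 382 and 497 TPM before induction, 621 and 528 TPM at MCE and 779 and 747 TPM at Diff. The 6 shFTO libraries stayed between 252 and 334 TPM, below every shScram library. The log2 difference was −0.41 ± 0.15 in preadipocytes, which did not pass, −1.16 ± 0.15 at the MCE stage and −1.23 ± 0.15 at the Diff stage (limma, adjusted p = 0.000899 and 0.000531 for the latter stages). No change of Timp2 between successive stages was called in either line. A gene on the same strand, Cep295nl, overlaps Timp2 and held at most 1.91 TPM.

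Timp4 encodes the inhibitor with the narrowest tissue range, which adipose tissue expresses. It was scarce in shScram preadipocytes, at 0.30 and 0.0658 TPM, and at the MCE stage, at 0.560 and 0.787 TPM, and reached 7.92 and 9.76 TPM at the Diff stage. Only this last group admitted Timp4 to the test. Its comparisons with the shScram Diff libraries were thus favoured beforehand, and their p-values are no independent support. In shFTO cells no library went above 0.926 TPM, and both Diff libraries, at 0.926 and 0.861 TPM, lay above the other 4. The log2 fold change was −2.37 ± 0.17 at the Diff stage and −0.66 ± 0.17 at the MCE stage (limma, adjusted p = 3.4e-05 and 0.0297). The first held in all 21 alternatives in which Timp4 was tested and the second in 16 of them. The rise from MCE to Diff was 2.55 ± 0.17 in shScram and 0.84 ± 0.17 in shFTO cells, and the lines differed by −1.71 ± 0.24 (limma interaction contrast, adjusted p = 0.00896). That difference depended on the pseudocount. The mean TPM rose 13.1-fold in shScram and 16.1-fold in shFTO cells, and with a pseudocount of 0.1 the difference was −0.85 and not called (limma, adjusted p = 0.69). It was also lost without replicate 1 of shFTO MCE, and so held in 19 of 21 alternatives. Syn2, on the opposite strand over Timp4, ranged from 0.235 to 13.4 TPM, and whether the authors counted reads by strand is not stated.

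The makeup of the inhibitor pool differed accordingly. Timp1 made up 9.0% to 24.8% of the summed Timp TPM in the 6 shScram libraries and 44.9% to 77.4% in the 6 shFTO libraries. Timp2 made up 74.4% to 89.6% and 21.5% to 46.4%, and neither range overlapped between the lines. The summed Mmp level was 1.94 to 2.40 times the summed Timp level in shScram cells at Pre and MCE and 4.29 to 4.41 times at Diff. In shFTO cells it was 2.23 to 2.24 times in preadipocytes, 1.66 to 1.79 times at the MCE stage and 4.13 to 4.15 times at the Diff stage. These ratios of transcript levels are descriptions without a test.

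**Figure D2:**
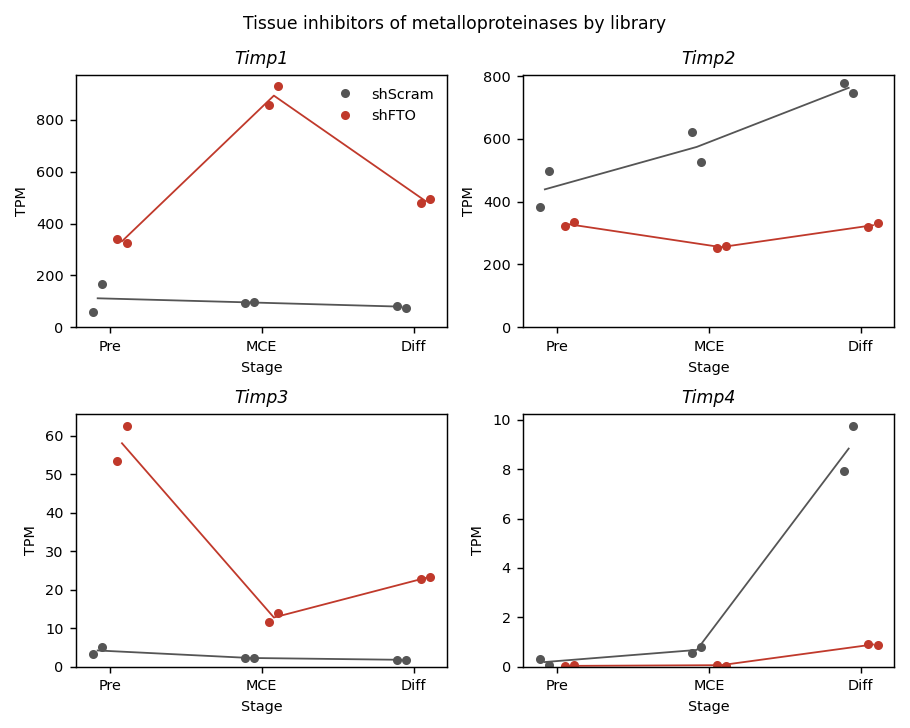
TPM of the 4 Timp genes by stage, with 1 point per library, grey for shScram and red for shFTO, and lines through the means of 2 libraries. The red Timp1 and Timp3 points lie above the grey ones at every stage, and the red Timp2 points, at 252 to 334 TPM, lie below all grey ones.

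Next, the knockdown was compared with the control across the tested members at each stage. In preadipocytes 11 of 24 were called and all 11 were higher in shFTO cells, where 15.9% of all tested genes were called higher and 12.3% lower. At the MCE stage 8 were higher and 6 lower, beside 10.5% and 7.26% of all genes. At the Diff stage 7 were higher and 3 lower, beside 11.9% and 9.31%. The 3 include Timp4, which was admitted to the test through the shScram Diff group alone. The median log2 fold change of the 24 was 0.46, 0.37 and 0.36 in stage order, and over all genes it was 0.08, 0.05 and 0.03. A member was called at 1 or more stages in 19 cases, beside 44.5% of all genes, and Adamts5, Adamts7, Timp1 and Timp3 were called higher at every stage, beside 3.41%.

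Without a fit, the libraries of the lines did not overlap for 17 of 24 members in preadipocytes, 14 of them higher in shFTO cells and 3 lower, beside 33.6% and 26.9% of all tested genes. At the MCE stage 16 lay above and 8 below, beside 41.1% and 30.3%, and at the Diff stage 15 above and 9 below, beside 39.0% and 34.0%.

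The counts of calls moved with single libraries, and so did the share of all genes called, which was 28.2%, 17.8% and 21.2% in stage order with all 12 libraries. In preadipocytes 15 members were called without replicate 1 of shScram preadipocytes, 12 higher and 3 lower, beside 29.0% of all genes, and 15 without its replicate 2, all higher, beside 62.8%. Without replicate 1 or 2 of shFTO preadipocytes 5 or 4 were called, beside 7.32% or 9.88%. At the MCE stage 21 were called without either shScram preadipocyte library, beside 41.0% of all genes. There 9 or 7 were called without replicate 1 or 2 of shScram MCE, beside 8.97% or 8.94%, and 8 without replicate 1 or 2 of shFTO MCE, beside 7.95% or 7.61%. At the Diff stage 18 were called without replicate 1 or 2 of shScram preadipocytes, beside 45.7% or 45.6%. Without replicate 1 of shScram Diff, the library with the conflicting label, 7 were called, 4 higher and 3 lower, beside 11.2% of all genes. When only the 4 preadipocyte libraries entered the fit, none was called by limma in preadipocytes, among the members or all genes, and 7 members had an unadjusted p under 0.05. Under a correction for GC content, 13 were higher and 4 lower in preadipocytes, beside 16.4% and 14.9% of all genes.

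Some calls held whichever library was left out, among them the Diff call of Timp4, which was admitted through the shScram Diff group alone. In preadipocytes these were Adamts2, Adamts7, Mmp11 and Timp3. At the MCE stage they were Adamts5, Adamts7, Adamts15, Mmp19, Timp1, Timp2 and Timp3, and at the Diff stage Adamts5, Adamts7, Adamts12 and the 4 Timp genes. The preadipocyte calls of Timp1, Adamts9 and Adamts10 were lost without either shFTO Pre library and that of Adamts5 without replicate 2. The MCE calls of Adamts4 and Timp4 were lost without any one MCE library, that of Mmp3 without replicate 2 of shScram or either shFTO library of that stage, and that of Adamts6 without replicate 2 of shScram. At the Diff stage, Adamts1 and Adamts10 were lost without any one library of the stage, and Adamts6 without replicate 1 of shScram or replicate 2 of shFTO. The preadipocyte calls of Adamts1 and Mmp28 and the MCE calls of Mmp9 and Mmp11 remained only when a shScram preadipocyte library was the one left out. The MCE call of Adamts1 was lost without any one MCE or Diff library, and the preadipocyte call of Adamts4 without any one MCE library or either shFTO Pre library.

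**Figure D3:**
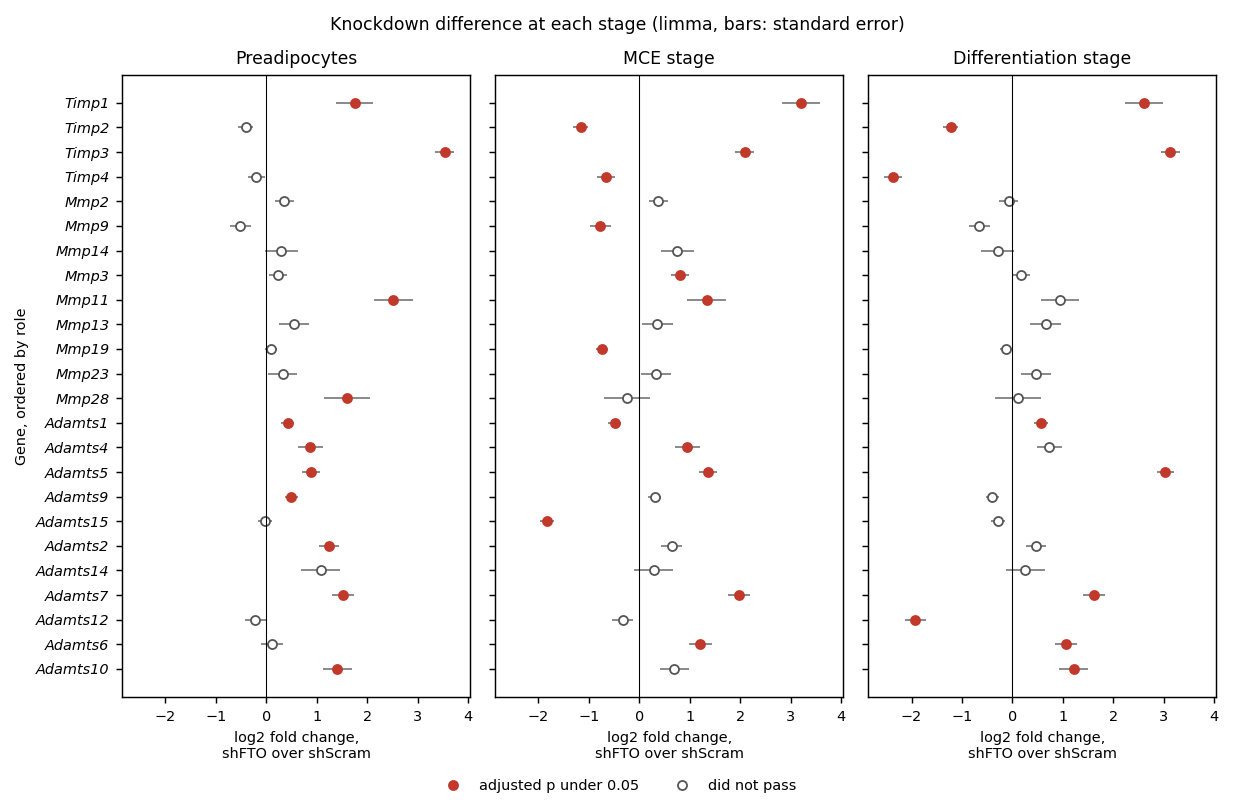
Log2 fold change of TPM + 1, shFTO over shScram, for the 24 tested genes in preadipocytes, at the MCE stage and at the Diff stage, with bars of 1 standard error. Filled points passed an adjusted p under 0.05 in limma. All 11 filled points lie right of 0 in preadipocytes, and Timp2, Timp4 and Adamts12 are the filled points left of 0 at the Diff stage.

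Adamts1, Adamts4, Adamts5, Adamts9 and Adamts15 encode proteases that cleave proteoglycans such as versican and aggrecan, and Adamts5 had the largest called knockdown difference of the tested Adamts genes. Adamts5 encodes the main aggrecanase of mouse cartilage and lies 53.1 kb from Adamts1 on chromosome 16. It held 40.2 and 30.9 TPM in shScram preadipocytes, 2.97 and 2.34 TPM at MCE, and 7.13 and 7.62 TPM at Diff. The shFTO libraries held 58.4 and 74.3 TPM, 8.68 and 8.06 TPM, and 66.1 and 68.4 TPM. In shFTO cells both Diff values lay between those of the preadipocyte libraries, whereas in shScram cells both Diff values lay below them. The knockdown difference was 0.88 ± 0.17, 1.36 ± 0.17 and 3.03 ± 0.17 in stage order (limma, adjusted p = 0.0089, 0.000948 and 8e-06), and the first held in 19 of 22 alternatives. Both lines fell from Pre to MCE, by 3.32 ± 0.17 and 2.84 ± 0.17. The later rise was 1.20 ± 0.17 in shScram and 2.87 ± 0.17 in shFTO cells. That difference of 1.66 ± 0.25 was called (limma interaction contrast, adjusted p = 0.0101) and held in 16 of 22 alternatives.

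Adamts1, a secreted protease of versican that was first studied in inflammation and ovulation, was the most abundant ADAMTS gene and made up 52.9% to 76.5% of the summed Adamts TPM. Its shScram levels were 341 and 368 TPM before induction, 234 and 202 TPM at MCE and 685 and 690 TPM at Diff. Its shFTO levels were 446 and 508 TPM, 167 and 143 TPM, and 992 and 1042 TPM. The shFTO libraries were thus above the controls at Pre and Diff and below them at MCE, with log2 differences of 0.42 ± 0.13, −0.49 ± 0.13 and 0.56 ± 0.13 (limma, adjusted p = 0.0442, 0.0342 and 0.0171). These calls held in 6, 11 and 17 of 22 alternatives. The fall from Pre to MCE was 0.70 ± 0.13 in shScram and 1.62 ± 0.13 in shFTO cells, and the later rise was 1.66 ± 0.13 and 2.71 ± 0.13. Both steps differed between the lines, by −0.92 ± 0.19 and 1.06 ± 0.19 (limma interaction contrasts, adjusted p = 0.0293 and 0.0245), in 9 and 13 of 22 alternatives.

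Adamts15, another versican-cleaving protease, rose at both steps in both lines. In preadipocytes of both lines no library held more than 0.228 TPM. At the MCE stage it reached 8.14 and 8.06 TPM for shScram and 1.75 and 1.40 TPM for shFTO, and at the Diff stage 22.9 and 25.2 TPM and 20.2 and 18.7 TPM. The lines therefore differed at the MCE stage, by −1.82 ± 0.14 (limma, adjusted p = 7.2e-05). From Pre to MCE it rose by 2.91 ± 0.14 in shScram and 1.11 ± 0.14 in shFTO cells, and from MCE to Diff by 1.46 ± 0.14 and 2.99 ± 0.14. The lines differed in both steps, by −1.80 ± 0.20 and 1.53 ± 0.20 (limma interaction contrasts, adjusted p = 0.00182 and 0.00545), and these 3 calls held in all 22 alternatives. Its neighbour Adamts8, 20.1 kb away on chromosome 9, stayed at or under 0.223 TPM.

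Adamts4 encodes the other well-known aggrecanase. Its shScram levels were 5.48 and 10.7 TPM, 6.49 and 6.50 TPM, and 13.4 and 11.8 TPM in stage order. Its shFTO levels were 14.0 and 16.0 TPM, 13.7 and 13.3 TPM, and 20.2 and 23.1 TPM, above the shScram libraries of the same stage each time. The differences of 0.87 ± 0.24 in preadipocytes and 0.95 ± 0.24 at the MCE stage were called (limma, adjusted p = 0.0305 and 0.0276), in 13 and 16 of 22 alternatives, and 0.73 ± 0.24 at the Diff stage was not. Since counting by strand is not stated, the Adamts4 level is uncertain.

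Adamts9 encodes a versican-cleaving protease that is also needed for transport out of the cell. It rose at both steps in both lines, from 4.26 and 3.76 TPM through 8.71 and 8.07 TPM to 19.9 and 21.5 TPM in shScram cells. The shFTO libraries went from 5.88 and 6.19 TPM through 10.9 and 10.2 TPM to 15.9 and 15.0 TPM. The lines thus crossed over, with shFTO above in preadipocytes and at MCE and below at Diff. Of these differences only that in preadipocytes, 0.49 ± 0.13, was called (limma, adjusted p = 0.0249, in 18 of 22 alternatives). The rise of Adamts9 from MCE to Diff in shFTO cells was called in 16 of 22 alternatives.

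Adamts7 and Adamts12 form the pair of ADAMTS proteases that cleave the cartilage oligomeric matrix protein, and they went opposite ways in the knockdown. Adamts7 held 4.67 and 8.37 TPM, 3.59 and 2.89 TPM, and 6.83 and 6.33 TPM in shScram cells in stage order. Those of shFTO cells were 19.7 and 20.3 TPM, 15.6 and 15.5 TPM, and 21 and 23.6 TPM. No shScram library reached the lowest shFTO library. The differences were 1.53 ± 0.22, 1.97 ± 0.22 and 1.62 ± 0.22 (limma, adjusted p = 0.00229, 0.00044 and 0.00107), and the first held in 21 of 22 alternatives. Tbc1d2b overlaps Adamts7 on the other strand at 23 to 72.8 TPM.

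Adamts12 rose with differentiation in shScram cells, from 13.0 and 9.0 TPM in preadipocytes through 25.7 and 17.6 TPM at the MCE stage to 117 and 116 TPM. The shFTO libraries held 8.22 and 10.2 TPM, 17.4 and 16.1 TPM, and 29.6 and 29.9 TPM. The lines overlapped in preadipocytes and stood apart at the Diff stage, where the shFTO mean was 0.256 times the shScram mean. The log2 fold change there was −1.93 ± 0.21 (limma, adjusted p = 0.000322), while −0.33 ± 0.21 at the MCE stage did not pass. The rise from MCE to Diff was 2.39 ± 0.21 in shScram and 0.79 ± 0.21 in shFTO cells, and the difference of −1.60 ± 0.30 was called (limma interaction contrast, adjusted p = 0.0282) in 14 of 22 alternatives.

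Adamts2 and Adamts14 encode procollagen N-proteinases, which remove the amino-terminal propeptide before fibrils form. Adamts2 rose at both steps in both lines, from 5.32 and 9.25 TPM through 24.4 and 22.3 TPM to 49.8 and 44.8 TPM in shScram cells. In shFTO cells it went from 18.2 and 18.0 TPM through 38.6 and 35.2 TPM to 65.4 and 65.7 TPM, above the controls at every stage. Of these differences, 1.25 ± 0.20 in preadipocytes was called (limma, adjusted p = 0.00397, in 21 of 22 alternatives). The rise of Adamts2 from MCE to Diff in shFTO cells was called in 17 of 22 alternatives. Adamts14 held 6.71 and 20.9 TPM, 9.34 and 7.12 TPM, and 29.6 and 26.7 TPM in shScram cells, and 27.2 and 25.6 TPM, 9.96 and 10.3 TPM, and 32.9 and 34.5 TPM in shFTO cells. It was called between the lines at no stage, and it rose from MCE to Diff in both, by 1.67 ± 0.38 and 1.64 ± 0.38 (limma, adjusted p = 0.0141 and 0.0137).

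Adamts6 and Adamts10, close relatives tied to the fibrillin microfibrils of the matrix, were both higher in shFTO cells at the Diff stage. Adamts10 held 12.4 and 27.3 TPM, 8.67 and 7.48 TPM, and 19.3 and 19.7 TPM in shScram cells. It held 49.0 and 52.3 TPM, 14.1 and 13.1 TPM, and 45.1 and 48.0 TPM in shFTO cells. The differences of 1.41 ± 0.28 in preadipocytes and 1.21 ± 0.28 at the Diff stage were called (limma, adjusted p = 0.00964 and 0.0159), in 19 and 18 of 22 alternatives, and 0.69 ± 0.28 at the MCE stage was not. Adamts6 fell from 12.3 and 9.25 TPM in shScram preadipocytes to 1.45 and 0.810 TPM at the MCE stage and reached 2.45 and 3.60 TPM at the Diff stage. The shFTO libraries held 10.8 and 12.6 TPM, 3.91 and 3.84 TPM, and 6.85 and 7.80 TPM. They overlapped the controls in preadipocytes and were above them by 1.21 ± 0.22 at MCE and 1.06 ± 0.22 at Diff (limma, adjusted p = 0.00557 and 0.00897), in 21 and 20 of 22 alternatives.

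Of the MMPs, the gelatinase Mmp2 was the most abundant and made up 44.7% to 72.4% of the summed Mmp TPM. MMP2 degrades denatured collagen and basement membrane collagen. Mmp2 held 468 and 719 TPM in shScram preadipocytes, 969 and 863 TPM at MCE and 2663 and 2607 TPM at Diff. The shFTO libraries held 746 and 741 TPM, 1203 and 1173 TPM, and 2453 and 2536 TPM. It rose at both steps in both lines, by 0.66 ± 0.19 and 1.53 ± 0.19 in shScram and by 0.68 ± 0.19 and 1.07 ± 0.19 in shFTO cells (limma, adjusted p = 0.0235, 0.000843, 0.026 and 0.00379). The lines differed by 0.36, 0.38 and −0.08 in stage order, each with an SE of 0.19, and none of these passed.

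Mmp14 encodes the membrane-type collagenase that activates pro-MMP2. The shScram preadipocyte libraries held 275 and 674 TPM, a gap wider than the difference between the means of the lines at any stage, and the shFTO ones 520 and 541 TPM. At the MCE stage the levels were 393 and 362 TPM for shScram and 621 and 647 TPM for shFTO, and at the Diff stage 787 and 790 TPM and 639 and 649 TPM. The lines did not overlap at the MCE and Diff stages, and the differences of 0.75 ± 0.32 and −0.29 ± 0.32 were not called. Both were called by limma without either shScram preadipocyte library. In shScram cells Mmp14 rose from MCE to Diff by 1.06 ± 0.32 (limma, adjusted p = 0.0419), and in shFTO cells no step was called.

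The other gelatinase, Mmp9, is typical of leukocytes and remodelling tissue. It fell from Pre to MCE and rose again, from 20.8 and 33.9 TPM through 4.05 and 3.31 TPM to 25.2 and 23 TPM in shScram cells. In shFTO cells it went from 19.2 and 17.4 TPM through 1.62 and 1.83 TPM to 14.7 and 15.1 TPM, below the controls at each stage. The steps were −2.57 ± 0.21 and 2.43 ± 0.21 in shScram and −2.82 ± 0.21 and 2.54 ± 0.21 in shFTO cells, all called (limma, adjusted p = 4e-05, 0.000159, 2.5e-05 and 0.000107). Between the lines only the MCE stage was called, at −0.78 ± 0.21 (limma, adjusted p = 0.0342, in 9 of 22 alternatives).

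Mmp11, Mmp23 and Mmp28 belong to the MMPs that furin-like proteases activate inside the cell. Mmp11, the stromelysin that cleaves collagen type VI in fat tissue, held 16.2 and 49.3 TPM, 21.3 and 22.6 TPM, and 43.0 and 43.3 TPM in shScram cells. It held 167 and 168 TPM, 52.7 and 61.0 TPM, and 82.6 and 85.2 TPM in shFTO cells, above the controls at each stage. The difference was 2.52 ± 0.38 in preadipocytes and 1.33 ± 0.38 at the MCE stage (limma, adjusted p = 0.00299 and 0.0428), in 21 and 10 of 22 alternatives, and 0.94 ± 0.38 at the Diff stage was not called. In shFTO cells it fell from Pre to MCE by 1.55 ± 0.38 (limma, adjusted p = 0.0154).

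Mmp23, a protease held in the membrane by its amino-terminal end, fell and rose again in both lines. It held 23.2 and 50.8 TPM, 4.30 and 4.78 TPM, and 23.2 and 20.0 TPM in shScram cells, and 46.1 and 40.5 TPM, 6.14 and 5.82 TPM, and 32.6 and 28.0 TPM in shFTO cells. The fall was 2.68 ± 0.30 and 2.66 ± 0.30 and the rise 2.03 ± 0.30 and 2.16 ± 0.30 in shScram and shFTO cells (limma, adjusted p = 0.000205, 0.000232, 0.0018 and 0.00114), and no difference between the lines was called. Mmp28 held 6.64 and 26.4 TPM, 42.3 and 40.4 TPM, and 27.2 and 23.9 TPM in shScram cells and 27.4 to 43.7 TPM over the 6 shFTO libraries. Its knockdown difference in preadipocytes, 1.60 ± 0.45, was called (limma, adjusted p = 0.0317) in 10 of 22 alternatives. Its overlapping neighbour 1700020L24Rik ranged from 2.00 to 45.8 TPM.

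Mmp19, a broad-range MMP of vascular and epidermal tissue, rose at both steps in both lines. Mmp19 was called higher from Pre to MCE in shFTO cells in 12 of 22 alternatives. It held 38.8 and 45.4 TPM, 107 and 95.5 TPM, and 161 and 158 TPM in shScram cells, and 43.4 and 46.8 TPM, 62.8 and 57.9 TPM, and 144 and 146 TPM in shFTO cells. The lines were apart at the MCE stage, by −0.74 ± 0.12 (limma, adjusted p = 0.00339, in 21 of 22 alternatives). The step from Pre to MCE was 1.25 ± 0.12 in shScram and 0.41 ± 0.12 in shFTO cells, a difference of −0.83 ± 0.17 (limma interaction contrast, adjusted p = 0.0279, in 9 of 22 alternatives). Tmem198b overlaps it on the other strand at 18.6 to 36.9 TPM.

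**Figure D4:**
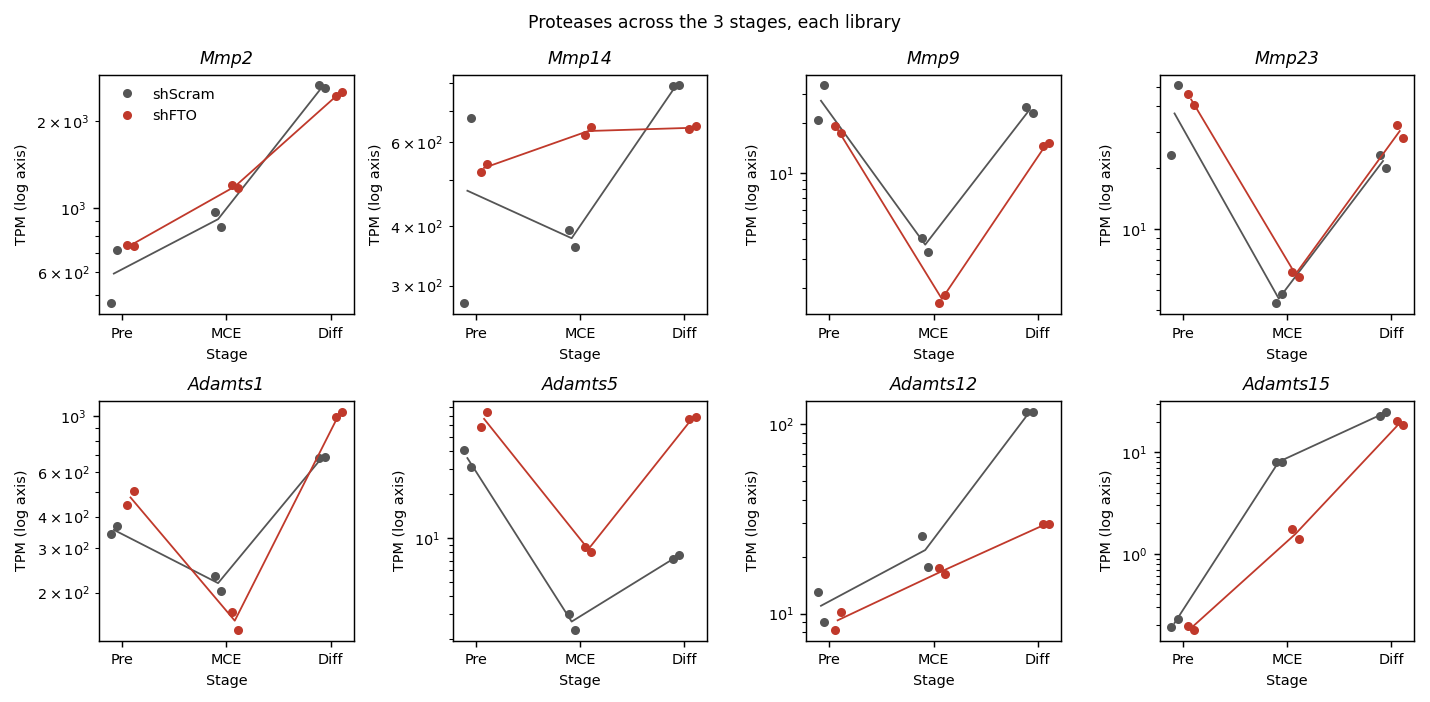
TPM on a log axis by stage for 4 Mmp and 4 Adamts genes, with 1 point per library, grey for shScram and red for shFTO, and lines through the means of 2 libraries. Mmp2 rose at both steps in both lines, Mmp9 and Mmp23 were lowest at the MCE stage, Adamts12 parted at the Diff stage and Adamts15 at the MCE stage.

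A cluster of 10 Mmp genes lies on chromosome 9 between 7272514 and 7699585, a stretch of 427 kb, among them the collagenases, the stromelysins Mmp3 and Mmp10, macrophage elastase and matrilysin. Of these 10, only Mmp3 and Mmp13 were tested, and the other 8 stayed at or under 1.08 TPM. An AP-1 element, the binding letters of Fos and Jun proteins (TGACTCA or TGAGTCA, which are each other's complement on the opposite strand), was found in the RefSeq promoter windows of 7 of the 10. It was in none of the windows of the 22 other members that had one, and in 5.20% of all 32851 windows. To show the element in genes of unequal level, 41 bases around it are given for 6 of the 7, read 5′ to 3′ on the gene's strand in GRCm38.p6, with the element in capitals. They lie upstream of the start, at chr9:7445759-7445799 for Mmp3, chr9:7272462-7272502 for Mmp13, chr9:7502262-7502302 for Mmp10, chr9:7464051-7464091 for Mmp1a and chr9:7692010-7692050 for Mmp7, all on the plus strand, and at chr9:7388096-7388136 on the minus strand for Mmp1b.
Mmp3: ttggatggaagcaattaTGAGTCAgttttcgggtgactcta
Mmp13: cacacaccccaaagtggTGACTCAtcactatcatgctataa
Mmp10: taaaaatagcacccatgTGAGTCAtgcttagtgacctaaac
Mmp1a: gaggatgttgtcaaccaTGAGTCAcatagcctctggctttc
Mmp1b: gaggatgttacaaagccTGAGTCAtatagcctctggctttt
Mmp7: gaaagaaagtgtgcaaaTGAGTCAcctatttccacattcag
The element starts 46 bases before the start of Mmp3 and 35 before that of Mmp13. The letters TATAAA were in 9 of the 10 windows, in 2 of the 22 others (Adamts1 and Mmp21) and in 13.6% of all windows. Of all 46 members, 32 had a window.

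The 6 genes shown with this element had very unequal levels, and Mmp12, which also had it, stayed at or under 0.0308 TPM. Mmp3, a stromelysin that also activates other MMPs, held 5.83 and 5.79 TPM, 8.56 and 5.82 TPM, and 13.7 and 11.4 TPM in shScram cells. It held 6.81 and 7.12 TPM, 13.9 and 12.2 TPM, and 14.0 and 14.4 TPM in shFTO cells. The lines differed at the MCE stage by 0.80 ± 0.18 (limma, adjusted p = 0.0154, in 18 of 22 alternatives). Mmp13, the main interstitial collagenase of the mouse, held 2.75 and 0.895 TPM in shScram preadipocytes and 2.44 and 3.41 TPM in shFTO preadipocytes, and between 0.177 and 1.54 TPM in the other 8 libraries. It fell from Pre to MCE by 1.01 ± 0.30 in shScram and 1.20 ± 0.30 in shFTO cells (limma, adjusted p = 0.0281 and 0.017), in 14 and 17 of 21 alternatives. Both of its libraries reached 1 TPM only in shFTO cells at Pre and Diff. Its high preadipocyte values thus helped to admit it, which favoured these falls beforehand. Mmp13 was called between the lines at no stage. Mmp10 had the highest single value of the untested genes, 1.08 TPM. Mmp1a stayed at or under 0.436 TPM and Mmp1b at or under 0.583 TPM, and Mmp7 was listed at 0 in every library.

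Across the stages, the tested members were read against the background of each line. From Pre to MCE, 8 of 24 rose and 9 fell in shScram cells, beside 12.2% and 26.9% of all genes. In shFTO cells 8 rose and 10 fell, beside 8.80% and 19.9%. From MCE to Diff, 18 rose and none fell in shScram cells, beside 20.0% and 5.22% of all genes, and the median log2 fold change was 1.03 against 0.23 over all genes. In shFTO cells 15 rose and none fell, beside 20.2% and 6.48%, with medians of 0.80 and 0.17. The same 14 genes were called higher from MCE to Diff in both lines, beside 11.8% of all genes, and they were Mmp2, Mmp9, Mmp19, Mmp23, Timp4 and 9 Adamts genes. Of these, Timp4 had been admitted through the shScram Diff group alone. From Pre to MCE, 8 fell in both lines and 6 rose in both, beside 13.0% and 5.04% of all genes.

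The split of all genes into higher and lower calls depended on the scaling. Median-ratio scaling shifted the median of all genes by 0.17 and −0.22 in shScram and by 0.19 and −0.17 in shFTO cells for the successive steps. From MCE to Diff in shScram cells, 11.7% of all genes were then called higher and 11.1% lower, and 15 members were higher and none lower. Under the GC correction these shares were 16.6% and 16.2%, with 18 members higher and 1 lower. In shFTO cells, the same step gave 15.4% and 12.7% of all genes under median-ratio scaling, with 12 members higher and 1 lower, and 19.6% and 20.5% under the GC correction, with 16 higher and 2 lower. For the step from Pre to MCE, median-ratio scaling gave 20.1% higher and 17.7% lower in shScram cells, with 9 members each way, and 14.2% and 14.1% in shFTO cells, with 8 members higher and 10 lower.

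Single libraries moved the stage counts as well, and the share of all genes with them. From Pre to MCE, shScram cells had 11 or 10 calls without replicate 1 or 2 of the MCE stage, beside 25.8% or 20.6% of all genes. In shFTO cells there were 9 or 11 without replicate 1 or 2 of the MCE stage, beside 16.4% or 16.0%, and 11 or 12 without replicate 1 or 2 of the Pre stage, beside 19.4% or 16.7%. From MCE to Diff, shScram cells had 9 calls without replicate 2 of the MCE stage and 11 without replicate 1 of the Diff stage, beside 10.1% and 13.8%, and shFTO cells had 9 without any one of the 4 libraries compared, beside 12.6% to 14.3%. Of the calls from Pre to MCE, 9 of 17 in shScram and 9 of 18 in shFTO cells held whichever library was left out, and from MCE to Diff 9 of 18 and 8 of 15 did. The rise of Mmp14 in shScram cells remained only when a shScram preadipocyte library was the one left out. The rise of Mmp2 from Pre to MCE was lost without either MCE library of its line, and in shFTO cells also without either Pre library, while its later rise was not lost in either line.

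The change across a stage differed between the lines for few members. From Pre to MCE 4 were called, all with the lower change in shFTO cells, where 2.52% of all genes were called in the higher and 2.59% in the lower direction. From MCE to Diff 3 were higher and 2 lower, beside 1.47% and 1.01%. The 2 include Timp4, admitted through the shScram Diff group alone. Without replicate 1 or 2 of shScram preadipocytes the counts were 9 or 15 for the earlier step, beside 14.1% or 52.5% of all genes, and 13 for the later, beside 17.1%. The earlier count was 1 without any one of the shScram MCE, shFTO Pre or shFTO MCE libraries, beside 1.60% to 1.96%, and 2 without any one Diff library, beside 3.00% to 3.19%. The later count was 1 without replicate 1 of shFTO MCE, 2 without its replicate 2, either shFTO Diff library or replicate 1 of shScram Diff, and 3 without replicate 2 of shScram Diff or either shScram MCE library, beside 0.783% to 1.11% of all genes. The Adamts15 difference was called throughout at both steps.

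Untested members are accounted for by their ranges. Adamts18, Adamts19, Mmp7 and Mmp20 were listed at 0 in all 12 libraries. Mmp27, a stromelysin-like MMP, reached 0.904 TPM, and Mmp15, a membrane-type MMP, reached 0.872 TPM. The neutrophil collagenase Mmp8 stayed at or under 0.335 TPM, and macrophage elastase, Mmp12, at or under 0.0308 TPM. Adamts13, the protease of von Willebrand factor, did not exceed 0.0176 TPM. The membrane-type genes Mmp16, Mmp17, Mmp24 and Mmp25 reached 0.291, 0.451, 0.314 and 0.0223 TPM. The remaining ones, Mmp21, Adamts3, Adamts16, Adamts17 and Adamts20, reached 0.0198 to 0.303 TPM.

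Genes that activate, block or clear these proteases were counted from a list of 20, of which 13 were tested. In shFTO cells 7 were higher and 1 lower in preadipocytes, 2 higher and 1 lower at the MCE stage, and 4 higher and 2 lower at the Diff stage. The shares of all genes called higher and lower were 15.9% and 12.3%, 10.5% and 7.26%, and 11.9% and 9.31% in stage order. Furin, which activates MMP14 and MMP11, was higher in preadipocytes by 1.57 ± 0.40, and the membrane-anchored MMP inhibitor Reck by 1.36 ± 0.16 (limma, adjusted p = 0.023 and 0.000919). Plaur, the urokinase receptor, was higher by 1.27 ± 0.33 in preadipocytes and 1.66 ± 0.33 at the Diff stage (limma, adjusted p = 0.0231 and 0.00735). In preadipocytes, Furin held 16.7 and 54.2 TPM in shScram replicates 1 and 2, against 90.98 and 92.91 TPM in the shFTO libraries. Plaur held 7.44 and 18.9 TPM against 30.9 and 29.8 TPM. Reck held 10.99 and 9.23 TPM against 24.7 and 30.5 TPM. The low values of shScram replicate 1 thus enlarged the preadipocyte differences of Furin and Plaur, but not that of Reck. Adamtsl4, an ADAMTS-like protein without protease activity, was lower at the Diff stage by 2.24 ± 0.55 on the log2 scale (limma, adjusted p = 0.0201). Calls of these regulators and of the substrates below were not followed under the alternative settings. With only the 4 preadipocyte libraries in the fit, no gene at all was called in preadipocytes. Of 18 matrix substrates, 17 were tested, and 6 were higher and 3 lower in shFTO preadipocytes, 8 and 3 at the MCE stage and 5 and 0 at the Diff stage, against the same shares of all genes.

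Some members are also made by other cell types, so their markers were read in the same libraries. The summed level of 8 macrophage markers was 6.59 to 20.0 TPM in shScram and 29.6 to 50.3 TPM in shFTO libraries. Cd14 alone gave 3.37 to 11.6 and 18.6 to 48.4 TPM of this, the defining markers Adgre1 and Ptprc were at 0 or at most 0.073 TPM, and Csf1r was at most 1.40 TPM. The endothelial markers summed to at most 1.15 TPM and the epithelial markers to at most 0.164 TPM. The 4 myofibroblast markers, chiefly Acta2, summed to 334 to 510 TPM in shScram preadipocytes and 1144 to 1249 TPM in shFTO preadipocytes. At the MCE and Diff stages they summed to 8.17 to 35.1 TPM in shScram and 98.4 to 209 TPM in shFTO cells. The myofibroblast sum was thus higher in the same line as Timp1 and Timp3, and its part in those differences was not tested.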

How the data were processed

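Reads had been trimmed (Trim Galore 0.6.5) and mapped to GRCm38 (HISAT2 2.1.0) by the authors, who deposited TPM estimated by StringTie 2.1.4 on Ensembl release 102 genes. Sequencing depth cannot be read from TPM, and 2 libraries a group limit the precision. Immunoprecipitated RNA and rhein-treated cells were not analysed here. Of 55487 genes, 15968 with at least 1 TPM in at least 2 of 12 libraries were tested on log2(TPM + 1) with limma 3.58.1 in R 4.3.3 (6 group means, 6 residual degrees of freedom, eBayes with trend, two-sided, Benjamini-Hochberg over all genes). Interaction contrasts compared the stage changes of the lines. The study's own test was DESeq2 on counts, which were not used here. Groups followed the sample titles. Coordinates came from GENCODE M21 on GRCm38, and GC content was known for 99.7% of tested genes. Named were members with a group mean of at least 5 TPM or any call, and of the list of regulators at most the 4 with the largest change per stage. The members and lists were chosen with earlier results of these data known. Alternatives were another pseudocount, filters, scaling, spread estimates, libraries in the fit, the replicate number as a block, GC correction, the authors' kind of threshold and each library left out. Tests were checked on simulated data. Python 3.11.15 was used for the other steps. Some genes of the list of regulators and of the overlapping genes are not reported here by name.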

Additional observations from a re-analysis of the deposited data

Results flagged for a closer look

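For 7 members the change across a stage differed between the lines in an interaction test (limma, adjusted p under 0.05). From Pre to MCE the change in shFTO cells minus that in shScram cells was −0.92 for Adamts1, −1.80 for Adamts15, −0.83 for Mmp19 and −1.45 for Timp3 on the log2(TPM + 1) scale. From MCE to Diff it was 1.06 for Adamts1, −1.60 for Adamts12, 1.53 for Adamts15, 1.66 for Adamts5 and −1.71 for Timp4. Timp4 had been admitted to the test through the shScram Diff group alone. Both differences for Adamts15 were called in all 22 alternatives. That for Mmp19 and the earlier one for Adamts1 were called in 9 of 22 each. The Timp4 difference was called in 19 of 21 alternatives, and with a pseudocount of 0.1 it was −0.85 (limma, adjusted p = 0.69), while the mean TPM rose 13.1-fold in shScram and 16.1-fold in shFTO cells.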

How the results depend on the processing

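Of 112 calls for single genes over 9 contrasts, 44 held in every alternative. None of 2697 alternative values, which include those of 11 uncalled results, had the opposite sign. Many of them could not. The estimate stays the same when the library left out lies outside the contrast or only the threshold differs. Leaving out 1 library at a time gave 4 to 15 member calls in preadipocytes, 7 to 21 at MCE and 7 to 18 at Diff for the knockdown. It gave 10 to 21 and 9 to 22 for the shScram steps, 9 to 22 and 9 to 21 for the shFTO steps, and 1 to 15 and 1 to 13 for the interactions. At an unadjusted p under 0.05 with a 2-fold change, 8 members were called at MCE, 10 from Pre to MCE in shScram and 9 from MCE to Diff in shFTO cells. A pseudocount of 0.1 gave 3 in the later interaction. With only the libraries compared in the fit, 0 were called in preadipocytes by limma (7 at an unadjusted p under 0.05), 17 at Diff, 4 from Pre to MCE in shScram cells, and 1 and 12 in the interactions. The GC correction gave 17 in preadipocytes, 17 at Diff and 9 in each interaction, with 4 higher and 5 lower in the earlier one. Median-ratio scaling gave 10 higher and 2 lower in preadipocytes. The replicate numbers share no stated origin, and deviations of same-numbered libraries correlated by −0.29 to 0.17 between groups. With the replicate block, 2 were called in the earlier interaction, and 8 single-gene calls were lost. With the GC correction and the replicate block, 17 were called at Diff, and 8 and 9 in the interactions. The cause of these shifts was not tested. The depth behind the TPM values is unknown, so differences under 1 TPM, as for Timp4 at MCE, have no counting error here.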
